A study of Mus musculus with 16 samples.

Results

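Transcripts of 10 genes of the neuronal cytoskeleton were measured in celiac ganglia and neuroblastoma tumors of Th-MYCN mice. The genes were chosen by symbol: the neurofilament triplet Nefl, Nefm and Nefh, the further neuronal intermediate filament subunits Ina and Prph, the microtubule genes Tubb3, Map2 and Mapt, and the growth cone genes Gap43 and Stmn2. They are 10 of the 24411 mouse genes in the tables, and all 10 were among the 16665 genes with enough counts to be tested. The study sequenced RNA from 16 samples to ask whether loss of 1 functional allele of Runx1t1, a transcriptional co-repressor gene, alters ganglia that carry the MYCN transgene. In Th-MYCN mice a human MYCN transgene is driven by the tyrosine hydroxylase (Th) promoter in cells of the sympathetic lineage, and homozygous animals develop neuroblastoma, a tumor of that lineage. Of the 5 groups, 4 held celiac ganglia taken at 2 weeks of age: ganglia without the transgene and with Runx1t1 wild-type (n = 4), ganglia without the transgene and labelled Runx1t1 het (n = 3), Th-MYCN homozygous ganglia with Runx1t1 wild-type (n = 3) and Th-MYCN homozygous ganglia labelled Runx1t1 het (n = 2). The fifth held 4 tumors, also Th-MYCN homozygous and Runx1t1 wild-type, and the labels give no age for them. The tables have no row for the human transgene, and a het animal keeps 1 functional Runx1t1 allele. The 7 ganglia without the transgene, of both Runx1t1 genotypes, are called transgene-free ganglia below. The labels do not state that each library came from a separate animal, so the p-values measure the spread between these samples.

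Neuronal intermediate filaments are long protein polymers that fill axons and set their caliber. Nefl forms the core of the filament together with Nefm, Nefh, Ina (alpha-internexin) or Prph (peripherin), and Prph is typical of peripheral neurons, sympathetic neurons among them. Microtubules built from tubulins such as Tubb3 run beside these filaments and are bound by Map2 in dendrites and by tau, the product of Mapt, in axons. Gap43 and Stmn2 (SCG10) are abundant in growing axon tips, where Gap43 acts at the membrane and Stmn2 makes microtubules more dynamic.

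The libraries held 10692299 to 38618757 counts, with 27096032 to 38618757 in tumors and 12367963 to 14221960 in the Th-MYCN ganglia labelled Runx1t1 het. Levels are given in TPM, which is scaled by gene length so that genes can be compared, and differences are log2 fold changes on counts scaled by TMM. The sympathetic neuron marker Dbh, which makes noradrenaline, averaged 2890 ± 946 TPM (SD, n = 7) in transgene-free ganglia and 109 ± 91.9 TPM (n = 4) in tumors. Of the list of 10 sympathetic neuron markers that holds Dbh, 7 were lower and 2 higher in tumors, against 30.9% and 30.6% of all genes tested. The Runx1t1 genotype rests on the labels, since Runx1t1 RNA ranged from 4.36 to 6.28 TPM in the transgene-free ganglia labelled het and from 2.78 to 4.41 TPM in those with wild-type Runx1t1. In Th-MYCN ganglia it ranged from 8.83 to 16.86 TPM (mean 12.8) in those labelled het. With wild-type Runx1t1 it ranged there from 7.9 to 70.34 TPM (mean 38.6), so these ranges overlapped. A pair of ganglia stood apart from their groups. Replicate 2 of the transgene-free ganglia with Runx1t1 wild-type held leukocyte RNA (Ptprc 230 TPM, Cd3e 75.5 TPM and Cd79a 218 TPM), and it was the lowest transgene-free ganglion for all 10 cytoskeleton genes. Replicate 1 of the Th-MYCN ganglia with Runx1t1 wild-type had the most Mki67 RNA, a marker of dividing cells, of the 3 in its group (347 TPM) and the lowest Prph and Nefh of all 12 ganglia. Values without these ganglia are given beside the results that rest on them.

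In transgene-free ganglia the 10 genes were abundant, and Prph led them. Prph ranged from 1531 to 4331 TPM with a median of 3613 over the 7 ganglia. Tubb3 followed with a median of 2719 TPM, Stmn2 with 2565 TPM, Nefl with 1859 TPM, Gap43 with 1344 TPM and Nefm with 889 TPM. The heavy subunit Nefh (273 TPM), Mapt (229 TPM), Ina (223 TPM) and Map2 (164 TPM) formed a lower tier. Neighbors in this order overlapped in their ranges except Nefm and Nefh, whose ranges were 451 to 1135 TPM and 133 to 424 TPM. In tumors the order differed: Nefl (median 1686 TPM) and Nefm (1492 TPM) came first, Tubb3 (821 TPM), Stmn2 (413 TPM) and Gap43 (256 TPM) next, and Prph last at 4.19 TPM.

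**Figure D1:**
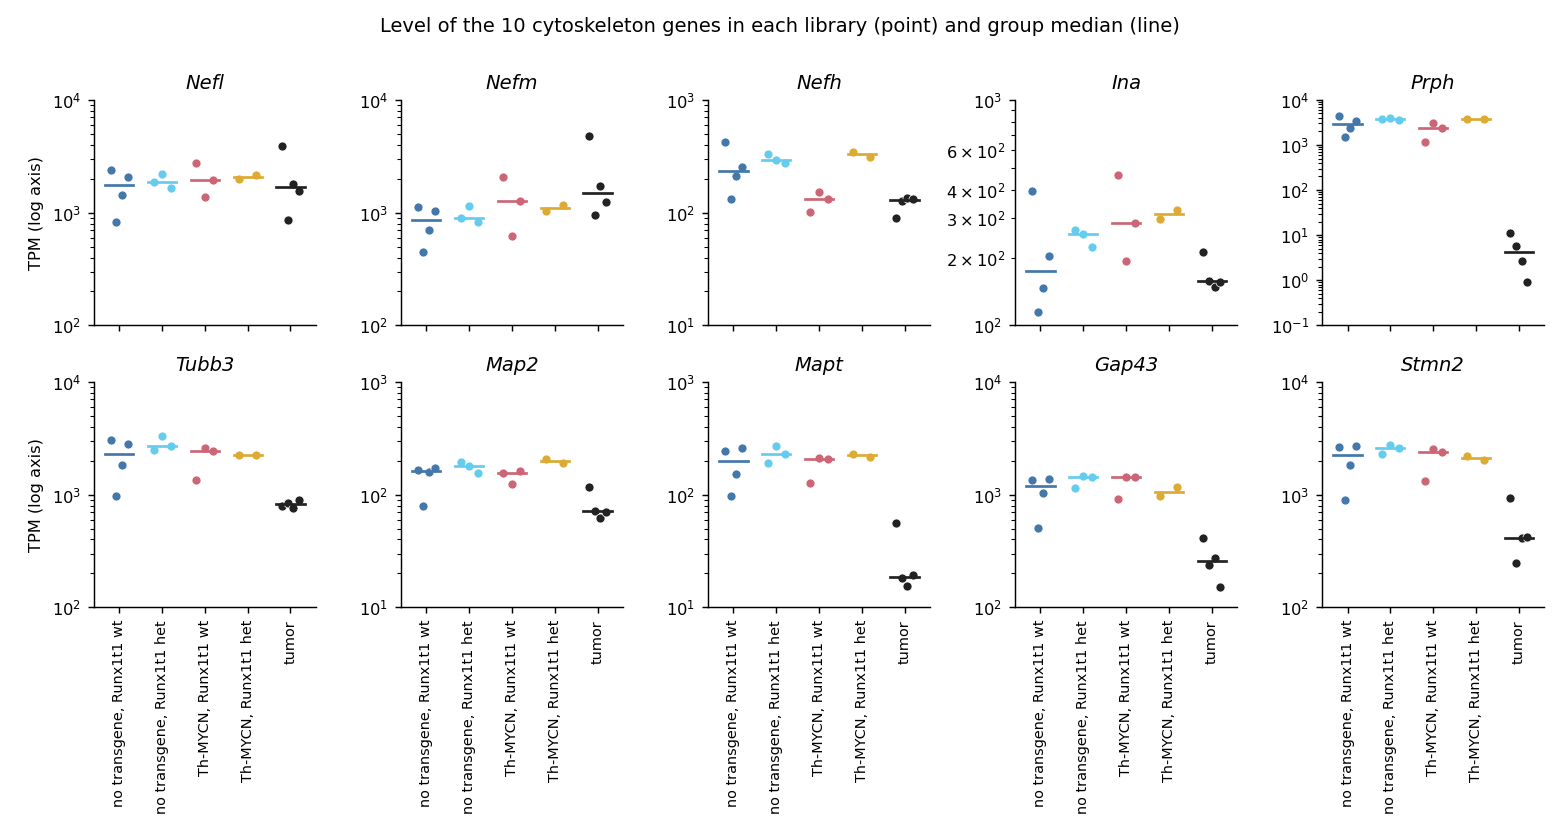
TPM on a log axis of each gene in each library (points, colored by group), with the group median as a line. Prph lies between 0.94 and 10.99 TPM in the 4 tumors and at 1144 TPM or more in every ganglion, while Nefl overlaps between all 5 groups.

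The comparison of tumors with transgene-free ganglia sets the malignant tissue against ganglia that lack the transgene. By edgeR's quasi-likelihood test with Benjamini-Hochberg adjustment, 7 of the 10 genes were lower in tumors and 1, Nefm, was higher. Of all genes tested, 61.4% passed the same threshold of 0.05, 30.6% as higher and 30.9% as lower. The median log2 fold change was −0.95 over the 10 genes and −0.06 over all genes tested. For 3 of the 10 (Nefm, Prph and Mapt) the tumors did not overlap with the transgene-free ganglia in CPM (counts scaled to the size of the library), against 44.1% of all genes tested. In bulk tissue, fewer cells of a type and less RNA per cell cannot be told apart.

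Other cell types moved with the same comparison. All 8 markers of satellite glia and Schwann cells were lower in tumors, with a summed level of 557 to 2004 TPM in transgene-free ganglia and 13.8 to 21.4 TPM in tumors. All 6 fibroblast markers were lower as well (1724 to 7899 TPM against 171 to 506 TPM), and all 6 markers of dividing cells were higher (18.1 to 165 TPM against 919.7 to 1057 TPM). Of 8 neuron markers outside the cytoskeleton 5 were lower and 1, Elavl3 (log2 fold change 1.66), was higher, and they summed to 2942 to 7382 TPM in transgene-free ganglia and to 1372 to 2183 TPM in tumors. Their part in the results on the 10 cytoskeleton genes was not tested.

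Prph fell the most. The tumors had 10.99, 5.71, 2.67 and 0.94 TPM, where the transgene-free ganglia had 1531 TPM at the lowest, 3613 TPM at the median and 4331 TPM at the highest. The tumor values stood on 252, 184, 64 and 30 counts, above the floor of 3 counts in each of the 4. No tumor came near any ganglion. The log2 fold change was −8.90 (SE 0.725, adjusted p = 7.71e-07), a level 478-fold lower. It ran from −9.59, without replicate 1 of the tumors, to −8.55 on leaving out 1 library, and was −9.75 by limma on log2(TPM + 0.1). Peripherin RNA was the most abundant of the 10 in transgene-free ganglia and the least abundant of the 10 in tumors.

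Ina, the other subunit outside the triplet, had 212, 158, 149 and 156 TPM in tumors and 115 TPM at the lowest, 223 TPM at the median and 393 TPM at the highest in transgene-free ganglia. All tumors lay inside the range of the ganglia. Its log2 fold change was −0.01 (SE 0.304, 95% interval −0.66 to 0.65, adjusted p = 0.984), and the sign of this value depended on the setting. Its exons share 456 of 3240 bases with Nt5c2 on the opposite strand, and it is not stated whether counting used the strand, so the level of Ina is uncertain.

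The promoters of these genes are shown because Prph and Ina encode subunits of the same filament and behaved differently in tumors. RefSeq promoters were matched for 4 of the 10 genes (Prph, Ina, Tubb3 and Map2). The 250 bases before the start are printed 5′ to 3′ on the plus strand of GRCm38.p6, chr15:99054924-99055173 for Prph and chr19:47014431-47014680 for Ina. Capitals mark TATAAA in Prph and CAGCTG in Ina.
Prph: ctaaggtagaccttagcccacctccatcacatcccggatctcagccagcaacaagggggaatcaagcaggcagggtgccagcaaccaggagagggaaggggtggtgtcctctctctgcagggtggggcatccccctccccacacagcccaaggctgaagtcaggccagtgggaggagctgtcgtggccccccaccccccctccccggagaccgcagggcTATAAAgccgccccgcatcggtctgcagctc
Ina: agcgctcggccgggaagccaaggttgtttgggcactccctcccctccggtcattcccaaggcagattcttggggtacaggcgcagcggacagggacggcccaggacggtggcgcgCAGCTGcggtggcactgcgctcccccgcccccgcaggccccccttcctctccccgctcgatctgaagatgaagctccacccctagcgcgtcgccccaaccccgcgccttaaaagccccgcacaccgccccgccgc

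Both windows were rich in G and C, at 65.2% for Prph and 70.8% for Ina. The letters searched for on both strands were TATAAA for the core promoter, CACGTG for the E-box, with CATCTG as a further form and CAGCTG as the last, then GGGCGG for the GC box and TGACGTCA for the cAMP response element. In Prph, TATAAA begins 31 bases before the start, and it was in no other of the 4 promoters. TATAAA was in 12.37% of all 32851 promoters of this length. CAGCTG begins 135 bases before the start of Ina and was in 13.0% of all promoters. CACGTG (6.02% of all promoters), CATCTG (14.44%) and TGACGTCA (1.55%) were in none of the 4, and GGGCGG (32.74%) was in all 4. A match of letters is a description of the window and not a binding site.

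The neurofilament triplet did not move as a unit. Nefm, the medium subunit, had 4801, 949, 1730 and 1255 TPM in tumors, against 451 TPM at the lowest, 889 TPM at the median and 1135 TPM at the highest in transgene-free ganglia. In TPM the lowest tumor lay within the range of the ganglia. In CPM, the scale of the test, the tumors had 1669 to 8261 and the transgene-free ganglia 622 to 1438, without overlap. Nefm rose by a log2 fold change of 1.73 (SE 0.425, adjusted p = 0.00287), or 3.32-fold. Replicate 1 of the tumors weighed on this value, which was 0.99 (adjusted p = 0.0247) without it.

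Nefl, the core subunit, had 3913, 852, 1804 and 1568 TPM in tumors and 834 TPM at the lowest, 1859 TPM at the median and 2383 TPM at the highest in transgene-free ganglia. Replicate 1 of the tumors was above all ganglia and the other 3 tumors were within their range. The log2 fold change of Nefl was 0.63 (SE 0.3603, 95% interval −0.15 to 1.40, adjusted p = 0.145). It was 0.09 without replicate 1 of the tumors, and 0.88 (adjusted p = 0.0415) without replicate 2. Nefh, the heavy subunit with a long phosphorylated tail, had 89.96, 126, 135 and 132 TPM in tumors and 133 TPM at the lowest, 273 TPM at the median and 424 TPM at the highest in transgene-free ganglia. Of the transgene-free ganglia, only replicate 2 with Runx1t1 wild-type, the one with leukocyte RNA, was as low as the tumors. Nefh fell by 0.76 on the log2 scale (SE 0.235, adjusted p = 0.0117), and by 0.85 (adjusted p = 0.00200) without the pair of ganglia that stood apart.

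Nefl and Nefm are neighbors on chromosome 14 and face each other (GENCODE vM21, GRCm38). Nefl spans chr14:68083863-68089095 on the plus strand and Nefm chr14:68082590-68124846 on the minus strand. The exons of Nefl share 1108 of 3380 bases with a long transcript of Nefm on the opposite strand. Whether counting kept the strands apart is not stated, so reads in these bases could be assigned to either gene, and both levels are uncertain to that extent. The other genes lie apart, with Nefh at chr11:4938754-4948064 and Mapt at chr11:104231390-104332090, Ina at chr19:47014698-47025327, Prph at chr15:99055174-99058978, Tubb3 at chr8:123411424-123422015, Map2 at chr1:66175273-66442583, Gap43 at chr16:42248442-42340651 and Stmn2 at chr3:8509360-8561606, and all 10 are protein-coding. No exonic base of Nefh, Prph, Tubb3, Mapt, Gap43 or Stmn2 was shared with another gene of the annotation, and 124 of the 16449 exonic bases of Map2 were.

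Ratios within a library set the subunits against each other. Nefm per 100 Nefl was 50.1 ± 2.27 in transgene-free ganglia (SD, n = 7, range 47.5 to 54.1) and 102 ± 18.6 in tumors (n = 4), with 123, 111, 95.9 and 80.0 in the 4 tumors. Every tumor exceeded every ganglion, the highest of which had 76.3. Nefh per 100 Nefl was 15.5 ± 2.21 in transgene-free ganglia (range 12.1 to 17.9) and 8.24 ± 5.10 in tumors (range 2.30 to 14.7), with overlap.

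**Figure D2:**
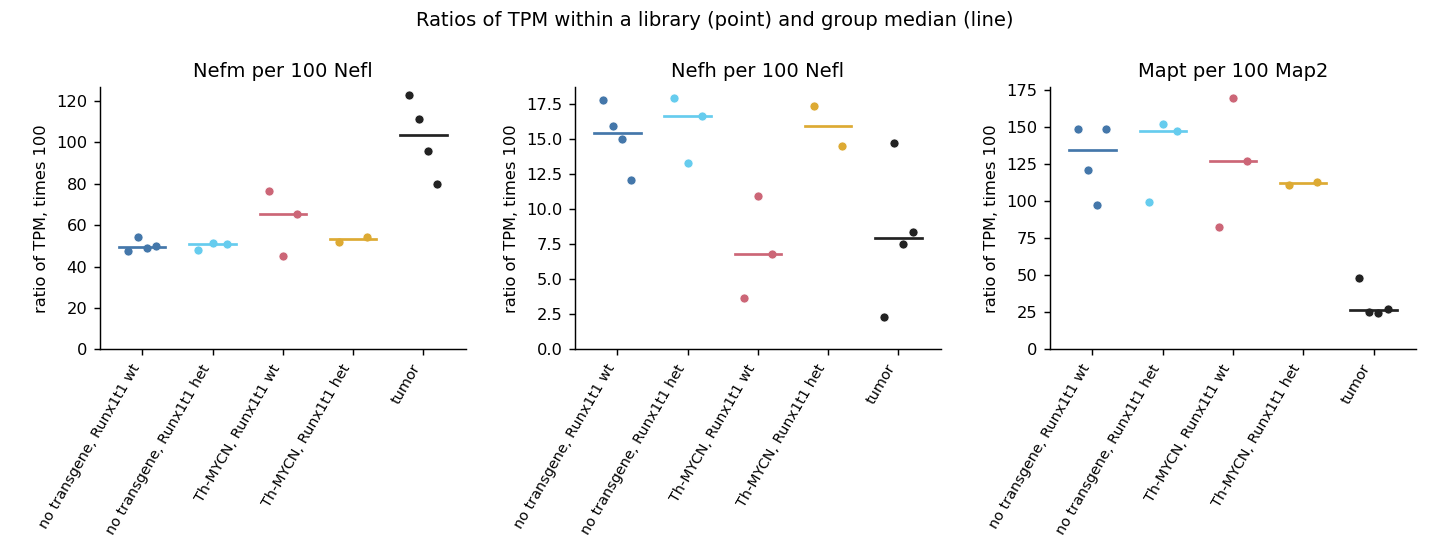
Ratios of TPM within each library, times 100 (points), with the group median as a line: Nefm to Nefl, Nefh to Nefl and Mapt to Map2, on axes that start at 0. Nefm per 100 Nefl is 80.0 or more in all 4 tumors and 76.3 or less in the ganglia, and Nefh per 100 Nefl is 10.9 or less in the Th-MYCN ganglia with Runx1t1 wild-type and 12.1 or more in the other ganglia.

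The summed RNA of the 5 intermediate filament subunits was made up differently in the tumors. In transgene-free ganglia Prph held 50.7% ± 2.31 (SD, n = 7) of the summed TPM, and Nefl and Nefm together held 41.5% ± 2.69. In tumors Prph held 0.124% ± 0.106 (n = 4) and Nefl and Nefm together 91.5% ± 4.30. The sum itself ranged from 3064 to 8663 TPM in transgene-free ganglia and from 2091 to 9026 TPM in tumors, and these ranges overlap. Among the 7 transgene-free ganglia the Prph share kept to 48.1 to 54.9%. That range includes the ganglion with leukocyte RNA, at 49.97%, although its summed level was the lowest of the 7.

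**Figure D3:**
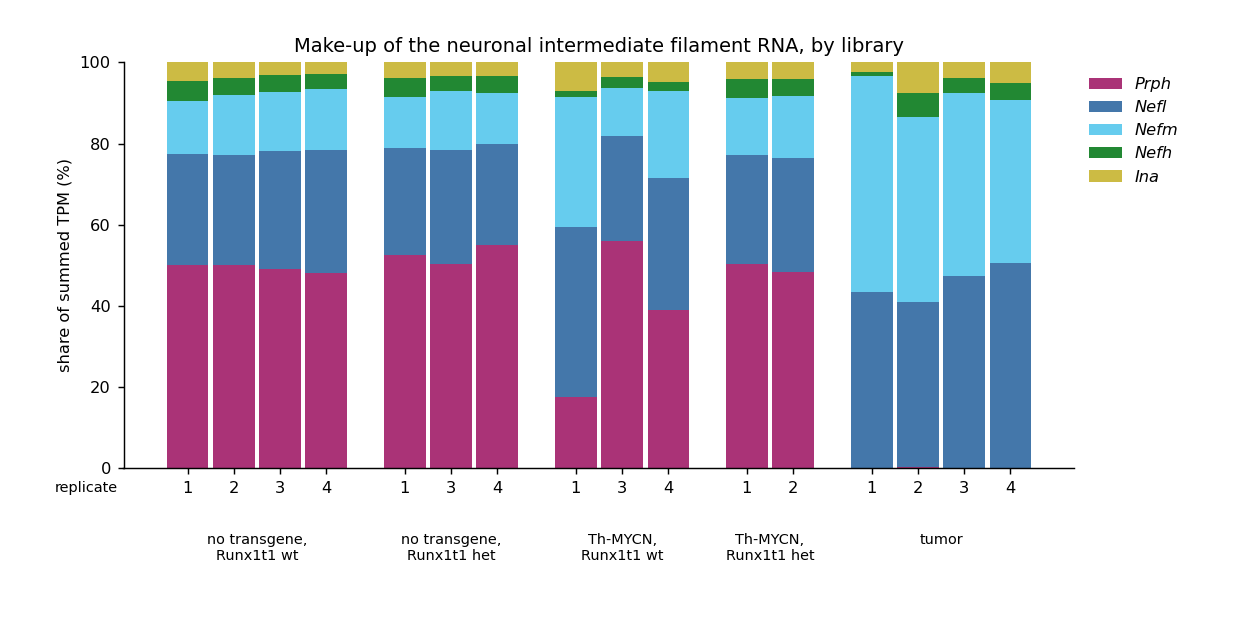
Share of each of 5 genes in the summed TPM of Prph, Nefl, Nefm, Nefh and Ina, in percent, 1 bar per library and grouped by genotype and tissue. Prph takes 48.1 to 54.9% in the transgene-free ganglia, 17.5, 56.0 and 38.9% in the Th-MYCN ganglia with Runx1t1 wild-type and 0.273% at most in tumors.

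All 3 microtubule genes were lower in tumors. Mapt, the gene of tau, had 56.4, 18.3, 15.4 and 19.2 TPM in tumors and 96.4 TPM at the lowest, 229 TPM at the median and 270 TPM at the highest in transgene-free ganglia. The groups did not overlap. Mapt fell by 2.54 on the log2 scale (SE 0.381, adjusted p = 5.98e-05), 5.80-fold, and fell by 3.16 without replicate 1 of the tumors. Tubb3, a tubulin typical of neurons, had 795, 847, 765 and 903 TPM in tumors, a narrow range below the lowest transgene-free ganglion at 966 TPM (median 2719 TPM, highest 3291 TPM). In CPM the groups overlapped, with 636 to 786 in tumors and 663 at the lowest in transgene-free ganglia. Tubb3 fell by 1.13 (SE 0.257, adjusted p = 0.00171), or 2.19-fold. Map2 had 117, 71.7, 62.6 and 70.3 TPM in tumors and 79.8 TPM at the lowest, 164 TPM at the median and 193 TPM at the highest in transgene-free ganglia, and the groups overlapped through replicate 1 of the tumors and the ganglion with leukocyte RNA. Map2 fell by 0.54 (SE 0.211, adjusted p = 0.0378), the smallest of the 7 decreases. This call was lost on leaving out 8 of the 11 libraries in turn, with adjusted p up to 0.122, and kept without replicate 2 of the wild-type ganglia, replicate 4 of the het ganglia or replicate 1 of the tumors. Mapt per 100 Map2 was 131 ± 24.3 (SD, n = 7) in transgene-free ganglia and 31.4 ± 11.3 (n = 4) in tumors, with no overlap.

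Both growth cone genes were lower in tumors. Gap43 had 409, 239, 273 and 152 TPM in tumors and 502 TPM at the lowest, 1344 TPM at the median and 1450 TPM at the highest in transgene-free ganglia. In TPM the groups did not overlap. Gap43 fell by 1.70 on the log2 scale (SE 0.287, adjusted p = 0.000156), or 3.26-fold. Stmn2 had 936, 248, 408 and 418 TPM in tumors and 888 TPM at the lowest, 2565 TPM at the median and 2747 TPM at the highest in transgene-free ganglia. Only replicate 1 of the tumors reached into the range of the ganglia, just above the one with leukocyte RNA. Stmn2 fell by 1.73 (SE 0.3603, adjusted p = 0.000851), or 3.31-fold.

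The choice of scale bears on these values. With limma on log2(TPM + 1) in place of TMM-scaled counts, the log2 fold changes moved by −0.41 at the median of the shifts of single genes. Nefm was then at 1.05 (adjusted p = 0.0456), Nefl at 0.03 and Ina at −0.38, and the same 8 genes passed the threshold, against 61.6% of all genes tested in that fit. Among the libraries over 20000000 counts, 8 of the 10 passed as well, against 59.8% of all genes tested there, with −8.89 for Prph and 1.69 for Nefm. A term for sex left 6 of the 10, against 57.6% of all genes tested in that fit, without Nefh (adjusted p = 0.0530) and Map2 (adjusted p = 0.141). Ddx3y, which set this term, was over 1 CPM in replicates 1, 2 and 3 of the tumors but not in replicate 4. Among transgene-free ganglia it was over 1 CPM only in replicate 2 with Runx1t1 wild-type and replicate 4 labelled het. Sex thus coincided in part with tissue. The call for Map2 was also lost with a depth term (adjusted p = 0.0617) and with only the groups compared (adjusted p = 0.0578).

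The next comparison asks what the MYCN transgene does in ganglia with Runx1t1 wild-type. None of the 10 genes passed the threshold by edgeR's quasi-likelihood test, against 0.936% of all genes tested (0.834% higher and 0.102% lower), and 1 gene, Nefh, had an unadjusted p under 0.05, as had 3302 of all 16665 genes. DESeq2 called 1 of the 10, also Nefh, and 7.71% of all genes tested. The groups overlapped in CPM for all 10, while 9.17% of all genes tested did not overlap. Nefh had 101, 151 and 133 TPM in the Th-MYCN ganglia and 424, 133, 213 and 252 TPM in the transgene-free ganglia with Runx1t1 wild-type. Of the latter, only the replicate with leukocyte RNA fell inside the range of the Th-MYCN ganglia. The log2 fold change of Nefh was −0.96 (SE 0.284, 95% interval −1.57 to −0.35, adjusted p = 0.103). It was −1.15 (adjusted p = 0.0323) without the ganglion with leukocyte RNA, −0.97 (adjusted p = 0.0210) by DESeq2 and −1.06 (adjusted p = 0.151) without that ganglion and replicate 1 of the Th-MYCN ganglia. Over the leave-one-out fits the log2 fold change of Nefh ran from −1.15 to −0.60, the latter without replicate 1 of the transgene-free ganglia. Its adjusted p ran from 0.0323 to 0.548 over these fits.

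The other 9 genes had log2 fold changes of −0.40 to 0.77 in this comparison, 7 of them positive, with adjusted p from 0.355 to 0.997. Without both ganglia that stood apart only 2 of the 10 values were positive, the highest at 0.21, and without the one with leukocyte RNA alone 4 were, the highest at 0.58. Without replicate 1 of the transgene-free ganglia 8 were positive, the highest at 1.09. Without replicate 3 of the Th-MYCN ganglia 5 were, the highest at 1.13. The 95% intervals of the other 9 genes differed in width, from −0.45 to 0.63 for Map2 up to a lower bound of −1.61 for Prph and an upper bound of 1.90 for Nefm. Prph had 1144, 2999 and 2320 TPM in the Th-MYCN ganglia with Runx1t1 wild-type, where the transgene-free ganglia of the same Runx1t1 genotype had 4331, 1531, 2379 and 3323 TPM. Nefm had 2091, 624.8 and 1275 TPM against 1132, 451, 696 and 1041 TPM. Both genes overlapped between the groups. In replicate 1, the ganglion with the most Mki67 RNA, the Prph share of the filament RNA was 17.5%, and it was 56.0% and 38.9% in the other two. Nefh per 100 Nefl was 3.68, 10.9 and 6.84 in the Th-MYCN ganglia, below all 4 transgene-free ganglia with Runx1t1 wild-type (12.1 to 17.8), a difference that was not tested. The summed level of dividing cell markers was 54.5 to 793 TPM in these Th-MYCN ganglia and 23.8 to 165 TPM in the transgene-free ganglia with Runx1t1 wild-type, and its part in the values was not tested.

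In ganglia labelled Runx1t1 het, none of the 10 genes and 0% of all genes tested passed the threshold between Th-MYCN and transgene-free mice by edgeR. No cytoskeleton gene had an unadjusted p under 0.05 there, against 242 of all 16665 genes, and DESeq2 called none of the 10 and 14 of all genes. In CPM, 3 of the 10 did not overlap, against 22.5% of all genes tested. The log2 fold changes ran from −0.39 to 0.28, with 95% intervals reaching from −1.50 to 1.53. Nefh had 348 and 314 TPM in the Th-MYCN ganglia and 333, 295 and 273 TPM in the transgene-free ganglia, with a log2 fold change of 0.10 (SE 0.3303). Prph had 3725 and 3716 TPM against 3712, 3937 and 3613 TPM. The values of Prph lay close together in both groups. The interval of each gene uses a spread shared by all 5 groups.

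**Figure D4:**
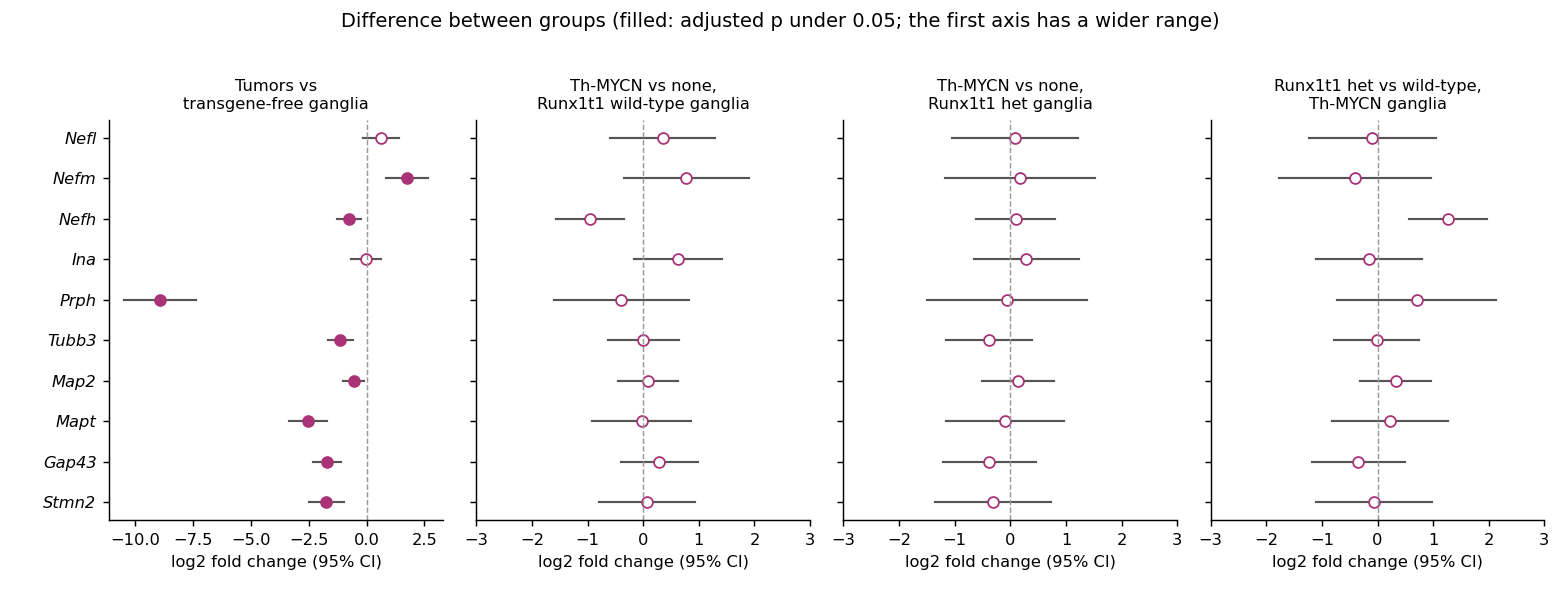
Log2 fold change (point) and 95% confidence interval (line) of the 10 genes in 4 comparisons by edgeR, with filled points where the adjusted p is under 0.05; the tumor comparison has a wider axis. In the tumor comparison 8 genes are filled, with Prph at −8.90 and Nefm at 1.73, and no gene is filled in the 3 comparisons between ganglia, where Nefh lies at −0.96 and 1.27 in the pair of panels that hold the Th-MYCN ganglia with Runx1t1 wild-type.

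Runx1t1 het was compared with wild-type among Th-MYCN ganglia. None of the 10 genes passed by edgeR, against 0.012% of all genes tested, and 1, Nefh, had an unadjusted p under 0.05, as had 2094 of all 16665 genes. Nefh was at 348 and 314 TPM in the ganglia labelled het and at 101, 151 and 133 TPM in those with wild-type Runx1t1. The groups did not overlap. The log2 fold change was 1.27 (SE 0.327, 95% interval 0.57 to 1.97, adjusted p = 0.256), and DESeq2, which called Nefh alone among the 10, gave 1.295 (adjusted p = 0.0243) and called 1.58% of all genes tested. Without replicate 1 of the wild-type Th-MYCN ganglia edgeR gave 1.18 (adjusted p = 0.621). The adjusted p ran from 0.0702 to 0.994 over the leave-one-out fits. In CPM, 4 of the 10 genes did not overlap between these groups, against 30.5% of all genes tested, and the other 9 genes had log2 fold changes from −0.41 to 0.70. Neuron markers outside the cytoskeleton summed to 6774 to 6873 TPM (het) and 3656 to 4762 TPM (wild-type). Sympathetic neuron markers summed to 9159 to 11938 TPM and 3834 to 7213 TPM, and markers of dividing cells to 38.3 to 151 TPM and 54.5 to 793 TPM. No gene of these 3 marker lists passed by edgeR, and their part in the values was not tested.

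Between Runx1t1 het and wild-type ganglia without the transgene, none of the 10 genes and 0% of all genes tested passed by edgeR. None of the 10 had an unadjusted p under 0.05, against 687 of all 16665 genes, and DESeq2 called none of the 10 and 5 of all genes. The groups overlapped in CPM for all 10, while 2.9% of all genes tested did not overlap. All 10 log2 fold changes were positive, from 0.17 to 0.38, with the wild-type group holding the ganglion with leukocyte RNA. Without that ganglion they ran from −0.03 to 0.17, and 9 were positive. Without replicate 1 of the wild-type group they ran from 0.36 to 0.66, and all 10 were positive. The difference between the MYCN effects in both Runx1t1 genotypes was tested as an interaction. No cytoskeleton gene and 0% of all genes tested passed, and Nefh alone of the 10 had an unadjusted p under 0.05 (log2 1.05, SE 0.431, adjusted p = 0.845), as had 937 of all 16665 genes.

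Th-MYCN ganglia were then compared with the tumors of mice with the same transgene. In the ganglia with Runx1t1 wild-type, 5 of the 10 genes were higher than in tumors and none was lower, with 34.5% of all genes tested called (20.5% higher and 14% lower in the ganglia). They were Prph (log2 fold change 8.32, adjusted p = 4.51e-06), Mapt (2.36, adjusted p = 0.000874), Gap43 (1.83, adjusted p = 0.000909), Stmn2 (1.64, adjusted p = 0.00702) and Tubb3 (0.94, adjusted p = 0.0248). All 3 ganglia exceeded all 4 tumors for these 5 in CPM, and 39.7% of all genes tested did not overlap. The call for Tubb3 was lost without replicate 3 of the tumors (adjusted p = 0.0570) and without replicate 3 or 4 of the ganglia (adjusted p = 0.106 and 0.0832). It was also lost with the replicate block (adjusted p = 0.0777). Nefh did not pass here: it had 101 to 151 TPM in the ganglia and 89.96 to 135 TPM in tumors, with a log2 fold change of −0.30 (SE 0.279). Nefm had a log2 fold change of −1.05 (SE 0.542, adjusted p = 0.148), of −1.65 (adjusted p = 0.0435) without replicate 1 of the ganglia and of −0.31 (adjusted p = 0.595) without replicate 1 of the tumors. Without both ganglia that stood apart Nefm passed as lower (−1.65, adjusted p = 0.0332, with 46.9% of all genes called).

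In the ganglia labelled Runx1t1 het, 7 of the 10 genes were higher than in tumors and none was lower, with 45.5% of all genes tested called (23.5% higher and 22% lower in the ganglia). These were the same 5, with log2 fold changes of 9.02 for Prph, 2.59 for Mapt, 1.48 for Gap43, 1.57 for Stmn2 and 0.93 for Tubb3, and in addition Nefh (0.97, SE 0.305, adjusted p = 0.0187) and Map2 (0.82, SE 0.278, adjusted p = 0.0272). Nefm stood at −1.46 (SE 0.642, adjusted p = 0.0782), and passed as lower by DESeq2 (adjusted p = 0.0297, with 50.1% of all genes called) and without both ganglia that stood apart (adjusted p = 0.0485, with 51.5%). The 2 het ganglia were below all 4 tumors in CPM, and leaving out 1 library moved it from −1.71 without replicate 2 of the tumors (adjusted p = 0.0431) to −0.72 without replicate 1 (adjusted p = 0.243). With Nefm, 8 of the 10 genes did not overlap, against 63% of all genes tested. The count of called genes was 6 at most on leaving out 1 tumor, so it was below 7 each time. Leaving out a het ganglion left 1 sample in that group. The log2 fold changes of the 10 genes then ran from −1.35 to 9.05 without replicate 1 of the het ganglia. They ran from −1.58 to 9.00 without replicate 2 of these ganglia. On leaving out 1 tumor, the call for Tubb3 was lost without replicate 1, 2 or 3 of the tumors. The call for Map2 was lost without replicate 2, 3 or 4 of the tumors. Both comparisons use the same tumors, so their calls are not independent. Other cell types moved here too: all 8 glia markers and all 6 fibroblast markers were higher than in tumors in the ganglia of either Runx1t1 genotype, with summed glia levels of 487 to 1846 TPM (wild-type) and 976 to 1422 TPM (het) and summed fibroblast levels of 888 to 3616 TPM and 2748 to 3072 TPM. Markers of dividing cells were lower for 1 of 6 in the wild-type and 6 of 6 in the het ganglia, and 5 of 8 neuron markers outside the cytoskeleton were higher in each, with 1 lower in the het ganglia. Their part in these results was not tested. A term for sex left 4 genes in the second, against 38.9% of all genes tested, as Nefh, Map2 and Tubb3 no longer passed (adjusted p = 0.110, 0.1302 and 0.155). Neither het ganglion had Ddx3y over 1 CPM, while replicates 1, 2 and 3 of the tumors had, so sex coincided in part with tissue in that comparison. Over 12 alternatives of that comparison the calls for Nefh and Map2 were each lost in 2, and that for Tubb3 in 1.

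The rest of the cytoskeleton was described with 8 further lists in the comparison of tumors with transgene-free ganglia. The counts of all these lists stand against 61.4% of all genes tested that were called there, 30.6% higher and 30.9% lower. Among 12 other intermediate filament genes, 4 were higher and 4 lower in tumors (median 0.30). The keratin genes Krt18 (log2 fold change 5.11) and Krt8 (4.98), typical of epithelia, and Lmnb1 (4.48), a subunit of the nuclear lamina, were higher. Sync (−4.88), which encodes syncoilin, was lower, at 63.9 ± 18.2 TPM in transgene-free ganglia and 1.61 ± 0.761 TPM in tumors. Among 12 other tubulins 3 were higher and 6 lower (median −0.69). Tuba4a (−2.23), Tubb2a (−1.82) and Tubb4a (−1.52) were lower, as Tubb3 was, and Tubg1 (1.08), the gamma-tubulin of the centrosome, was higher.

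Among 19 other microtubule-associated proteins 2 were higher and 12 lower (median −0.83). The largest decreases were those of Tppp3 (−6.43), which promotes tubulin assembly, from 2899 ± 744 TPM to 24.7 ± 7.75 TPM, of Dpysl3 (−3.56), a collapsin response mediator, of Map7 (−3.43), which recruits kinesin, and of Map1a (−3.31), which binds microtubules of mature neurons. The relatives of Stmn2 went both ways. Stmn1 (1.76), from 1040 ± 177 to 2583 ± 774 TPM, and Stmn4 (1.28) were higher in tumors and Stmn3 (−1.75) was lower. Stmn1 per 100 Stmn2 was 49.9 ± 14.4 (SD, n = 7) in transgene-free ganglia and 586 ± 199.9 (n = 4) in tumors, without overlap. Replicates 1 and 4 of the Th-MYCN ganglia with Runx1t1 wild-type, at 238 and 106, lay between them, as did replicate 2 of those labelled het, at 79.7. Replicate 3 of the former and replicate 1 of the latter, at 50.2 and 50.1, lay within the range of the transgene-free ganglia.

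Of 8 other growth cone and actin-linked genes, 4 were higher and none lower (median 0.55), while Gap43 and Stmn2 were lower. They were Marcksl1 (2.38), which binds actin and the membrane, Dbn1 (1.77), the gene of drebrin, Basp1 (0.83), which resembles Gap43 in its place at the membrane, and Fscn1 (0.79), which bundles actin. Of 10 spectrins, ankyrins and cytolinkers 7 were lower and 1 higher (median −1.32), with Ank2 (−2.38), Sptbn1 (−2.32), Plec (−1.76) and Dst (−1.75) changing most. Among 12 measured tubulin-modifying and severing enzymes 5 were higher and 4 lower (median −0.13). Vash2 (4.16), of the family that removes the terminal tyrosine of alpha-tubulin, rose from 3.10 ± 0.960 to 41.2 ± 3.57 TPM, and Katna1 (1.32), which severs microtubules, was higher, while Agbl4 (−2.51) and Ttll7 (−1.59), which trim and add glutamate on tubulin, were lower. Of 9 kinase genes that act on neurofilaments and tau, 4 were higher and 4 lower (median 0.21): Cdk5r2 (−2.15), Cdk5 (−1.06) and Mark4 (−1.15) were lower, and Cdk5r1 (1.13), the other activator of Cdk5, was higher.

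**Figure D5:**
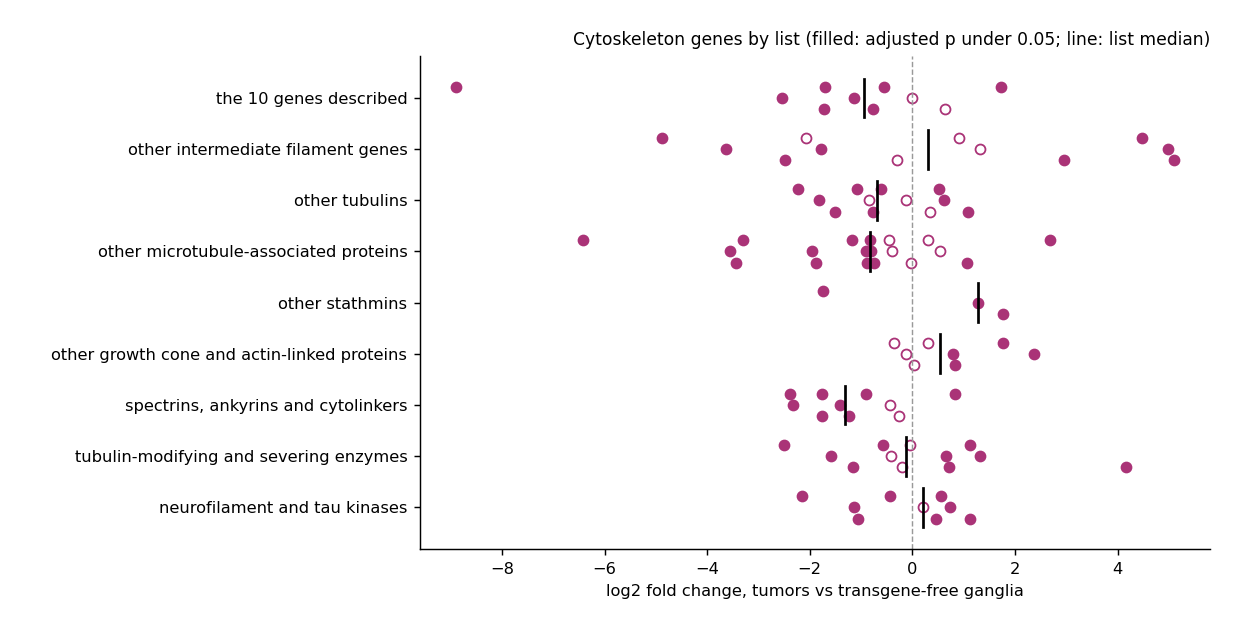
Log2 fold change between tumors and transgene-free ganglia (horizontal axis) of each gene in the 10 described and in 8 further cytoskeleton lists, with filled points for adjusted p under 0.05 and a line at the list median. Medians range from −1.32 in the spectrin list to 1.28 in the stathmin list, and Prph at −8.90 is lower than any gene of the other lists.

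In the ganglia, 3 genes of these lists passed between Th-MYCN and transgene-free mice with Runx1t1 wild-type by edgeR, all higher with the transgene, against 0.936% of all genes tested. Chosen here after their values were seen, they were Dcx, a microtubule-associated protein of migrating neurons (log2 fold change 2.67, adjusted p = 0.0333), Vash2 (3.19, adjusted p = 0.0353) and Lmnb2, a nuclear lamina subunit (1.54, adjusted p = 0.0425). No gene of the 8 lists passed in the Runx1t1 het ganglia, between the Runx1t1 genotypes or in the interaction. With Runx1t1 wild-type, Dcx was the 1 called of 19 other microtubule-associated proteins tested. Vash2 was the 1 of 12 tubulin-modifying and severing enzymes, and Lmnb2 the 1 of 12 other intermediate filament genes. Of all genes tested, 9.17% did not overlap in CPM between these groups. For all 3 genes the Th-MYCN ganglia lay above the transgene-free ganglia without overlap, on the same values that gave the calls. Their log2 fold changes ran from 1.96 to 3.08 for Dcx, 2.51 to 3.65 for Vash2 and 1.03 to 1.89 for Lmnb2 over 20 alternatives, of which 9, 9 and 8 kept the call. With every library kept, all 3 calls were lost by limma, with the replicate block and when the fit held these 2 groups alone. They were also lost, as were those of every other gene tested, when transgene-free replicate 1, 3 or 4 or Th-MYCN replicate 1 or 4 was left out. Without both ganglia that stood apart, the log2 fold changes were 1.96 for Dcx (adjusted p = 0.138), 2.55 for Vash2 (adjusted p = 0.142) and 1.18 for Lmnb2 (adjusted p = 0.142).

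Genes whose pattern over the 16 libraries lay closest to the mean of the 10 were sought among 10116 genes with a mean level of at least 10 TPM, by the root mean square difference of centered log2(TPM + 1). The nearest was Rtn1 (0.141), a reticulon of the neuronal endoplasmic reticulum, followed by Rusc2, Fam171a1, Ctnna2, Akap6, Uchl1, Fdft1, Cacna1b, Tubb4a and Tmeff2 (0.155 to 0.189). Of the 10 themselves, Gap43 (0.262) and Stmn2 (0.281) were nearest to their mean, and Nefm (1.31) and Prph (3.17) farthest from it. With a pseudocount of 0.1 in place of 1, 8 of the 10 nearest genes remained among the nearest 10.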

How the data were processed

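RNA of 12 ganglia and 4 tumors was sequenced. The study's methods name a SMARTer stranded total RNA kit in a passage on the ganglia that does not mention the tumors, while the labels name polyA RNA. The authors aligned reads to mm10 with STAR and quantified genes with RSEM, per the study's methods and the submitters' processing notes, which also name SAMtools. The annotation release and the strand setting are not given in the sources used here. The authors deposited unnormalized RSEM expected counts, and they deposited TPM values, scaled by gene length and library. Expected counts were rounded and tested with edgeR 4.0.16 (quasi-likelihood, TMM scaling, low-count filter by group, R 4.3.3) in 1 fit over all 5 groups, with Benjamini-Hochberg adjustment over 16665 genes and a threshold of 0.05, in 8 contrasts. TPM served for levels and ratios. Whether groups overlap was counted in TMM-scaled CPM, and overlap of TPM is named as such. DESeq2 1.42.0 and limma 3.58.1 on log2(TPM + 1) were alternatives, beside other scaling factors and filters, a replicate block, terms for depth and sex (Ddx3y over 1 CPM), the groups compared alone, libraries over 20000000 counts and leaving out each library. The gene-wise tests were tested on simulated data. Columns naming Runx1t1 as homozygous were read as wild-type from the titles.

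The 10 genes, marker lists and cytoskeleton lists were chosen with earlier results of these data known. Genes of the further lists were named as up to 4 called genes with the largest change in the tumor comparison and a mean of at least 1 TPM. Promoters came from RefSeq (GRCm38.p6) and positions from GENCODE vM21. Depth ran from 10692299 to 38618757 counts, and no interval here needs more than the spread between samples.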

Additional observations from a re-analysis of the deposited data

Results flagged for a closer look

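Each of the 10 genes was checked for a sample far from the others in the groups with 4 samples. These were the tumors and the transgene-free ganglia with Runx1t1 wild-type. The gap to the neighbor was set over the range (Dixon's 95% critical value 0.829), and 4 of 20 checks found such a sample. Chance gives about 1 in 20 for independent checks. The 10 genes share the same libraries, so these checks are not independent and an excess was not tested. Replicate 1 of the tumors stood high for Ina (211.5 TPM, others 149 to 158), Map2 (117 TPM, others 62.6 to 71.7) and Mapt (56.4 TPM, others 15.4 to 19.2). Replicate 2 of the transgene-free ganglia with Runx1t1 wild-type stood low for Map2 (79.8 TPM, others 157 to 173), and it is the ganglion with leukocyte RNA.

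For Nefh, the effect of MYCN on mean log2(TPM + 1) was −0.88 with Runx1t1 wild-type and 0.14 in ganglia labelled het. The test of this difference, edgeR's interaction, gave 1.05 (SE 0.431, adjusted p = 0.845).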

How the results depend on the processing

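The 734 recomputed values were fold changes, counts of called genes, mean shares and the list of nearest genes. Of them, 673 were labelled as kept, 37 as weaker, 12 as stronger and 12 as changed in sign, all of the last for Ina. A fold change was kept if its sign and side of the threshold held. A count was kept if it stayed close to the main count, so it could fall and still be kept. A share was kept if it moved by less than the SD. Counts and the fold changes behind them both entered these totals, which are not independent. Between ganglia, the recomputed values held the fold changes of Nefh alone among the 10 genes. Signs of other genes changed there, as the counts of positive values given above show. Ina in tumors against transgene-free ganglia was 0.00399 with no filter, 0.0362 with a replicate block, 0.27 with a depth term, 0.19 with a sex term, 0.00697 with only the groups compared, 0.18 in libraries over 20000000 counts, and −0.14 to 0.23 on leaving out 1 library. Prph, Mapt, Gap43, Stmn2, Tubb3 and Nefm kept their tumor calls under every alternative run. DESeq2 called 1 of the 10 genes for MYCN with Runx1t1 wild-type (7.71% of all genes) and 1 for Runx1t1 het against wild-type in Th-MYCN ganglia (1.58%), and a sex term left 4 for the het ganglia against tumors. Leaving out 1 library gave 7 to 8 calls for tumors (57.5 to 65.1% of all genes), 0 to 1 for MYCN with Runx1t1 wild-type (0 to 10.9%), 4 to 6 for wild-type (21.3 to 40.6%) and 3 to 6 for het (24.8 to 45.8%) Th-MYCN ganglia against tumors, and 0 elsewhere. The Prph share then ran from 0.0739 to 0.155% in tumors and from 28.2 to 47.5% in Th-MYCN wild-type ganglia. Of 25 same-numbered pairs 7 had a correlation over 0.1 (−0.315 to 0.319), among them all 4 of tumors with transgene-free wild-type ganglia (0.148 to 0.319) and none of the 3 of tumors with transgene-free het ganglia, so the numbers were not taken to pair the samples. The replicate block left 4 calls for Th-MYCN wild-type ganglia against tumors (30.2% of all genes), without Tubb3 (0.82, adjusted p = 0.0777), and changed no other call of the 10 genes. It left no gene called for MYCN with Runx1t1 wild-type, where Dcx, Vash2 and Lmnb2 had an adjusted p of 0.0736. The cause of these changes was not tested. Comparisons with the Th-MYCN het ganglia could not be run in libraries over 20000000 counts. The fit without both ganglia that stood apart was chosen after seeing the data, and gave 8 tumor calls (65.9% of all genes).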
